A study of Arabidopsis thaliana with 8 samples.

Results

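A group of 39 probe sets of the Arabidopsis ATH1 array, chosen by their measured levels, was high in seedlings of a LEC2-GR line 1 h after dexamethasone and lower both before treatment and at 4 h. They are 39 of the 22746 probe sets that are not array controls. A probe set was taken when its 1 h level exceeded the uninduced level and the 4 h level by at least 1.5 each on the scale log2(mean of 2 arrays + 45), and when its highest group mean was at least 200 intensity units. The numbers were met by 43 probe sets, of which LTI30, XTH18, CML38 and AT5G05600 were left out by name. The annotation gives a single gene for 22 of the 39, and lists none for the other 17, which are called here by probe set ID. The rule also leaves out further genes by name, among them AT1G65490 and genes of the CYP, UGT and GST enzyme families. These 17 could not be screened for any exclusion by name.

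All seedlings were 8 days old and of accession Ws-0, and each group had 2 replicates on 1 array each. The line carries 35S:LEC2-GR, a fusion of the seed transcription factor LEC2 with the glucocorticoid receptor, expressed from the 35S promoter, which is active in most cells of the plant. It was sampled untreated (called uninduced or 0 h), and after 1 h and 4 h with dexamethasone, the steroid that lets the fusion act. The fourth group was wild type Ws-0, without the transgene, after 4 h with dexamethasone. Nothing in the labels says that the replicates came from separate cultures, so p-values measure the spread between these arrays, which may be technical.

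In plants, a change of handling, temperature, solution or touch sets off a rapid wave of transcripts for signalling proteins, transcription factors and cell wall proteins, and many such messengers decay soon after. Transcription factors of the WRKY and AP2/ERF families and calmodulin-like proteins are known for such a wave, and so are ubiquitin ligases of the U-box type. LEC2 itself is a B3-domain factor of embryo and seed maturation. With no wild type array at 1 h, dexamethasone, handling, time and LEC2 cannot be told apart for the 1 h level of any member.

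On the arrays as a whole, the medians ran from 170 to 191 intensity units. The records of the instrument runs give a start time for the uninduced and wild type arrays and none for the 1 h and 4 h arrays, from which 2 fluidics runs were inferred; 1 h against 4 h and wild type against uninduced lie within such a run, and 1 h against uninduced and 4 h against wild type lie across them. A high background is remarked on in the record for replicate 2 at 4 h. GAPDH control signal, 3′ over 5′, was 2.30 and 3.22 on the uninduced arrays, 3.37 and 2.32 at 1 h, 2.46 and 1.59 at 4 h and 2.74 and 2.66 in wild type. For the actin control it was 6.90 and 13.4 uninduced, 9.47 and 11.2 at 1 h, 9.21 and 8.64 at 4 h, and 10.9 and 12.1 in wild type. Green tissue genes, with 6 of 8 listed markers on a probe set of their own, summed to 183382 and 189494 in the uninduced line, 158304 and 132987 at 1 h, 108835 and 119918 at 4 h and 118184 and 122522 in wild type. The 4 root markers of 7 listed summed to 16298 and 15845 uninduced, 15064 and 15106 at 1 h, 12425 and 11060 at 4 h and 19192 and 18191 in wild type. The part of tissue makeup in the results below was not tested. In whole seedlings, fewer cells of a type and less RNA per cell cannot be told apart.

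The 1 h levels chose the members and are given as a description. Both 1 h arrays lay above all 4 uninduced and 4 h arrays for 39 of 39 members, against 10.1% of the 15026 probe sets tested. The mean level at 1 h ran from 215 to 13382 intensity units with a median of 900.2, against uninduced means of 6.7 to 4700 with a median of 162. The difference between 1 h and the uninduced line had a median of 2.29 and reached 5.29, and that between 1 h and 4 h had a median of 1.78 and reached 3.23. On these thresholds 2.49% of the 12381 probe sets with a group mean of 200 or more were higher at 1 h than uninduced, 0.961% were lower at 4 h than at 1 h, and 0.347% met both. Of the 308 that were higher at 1 h, 14.0% were among the 43 that met both. The mirror pattern, a dip by 1.5 at 1 h with recovery by 1.5 at 4 h, was met by 5 probe sets.

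**Figure D1:**
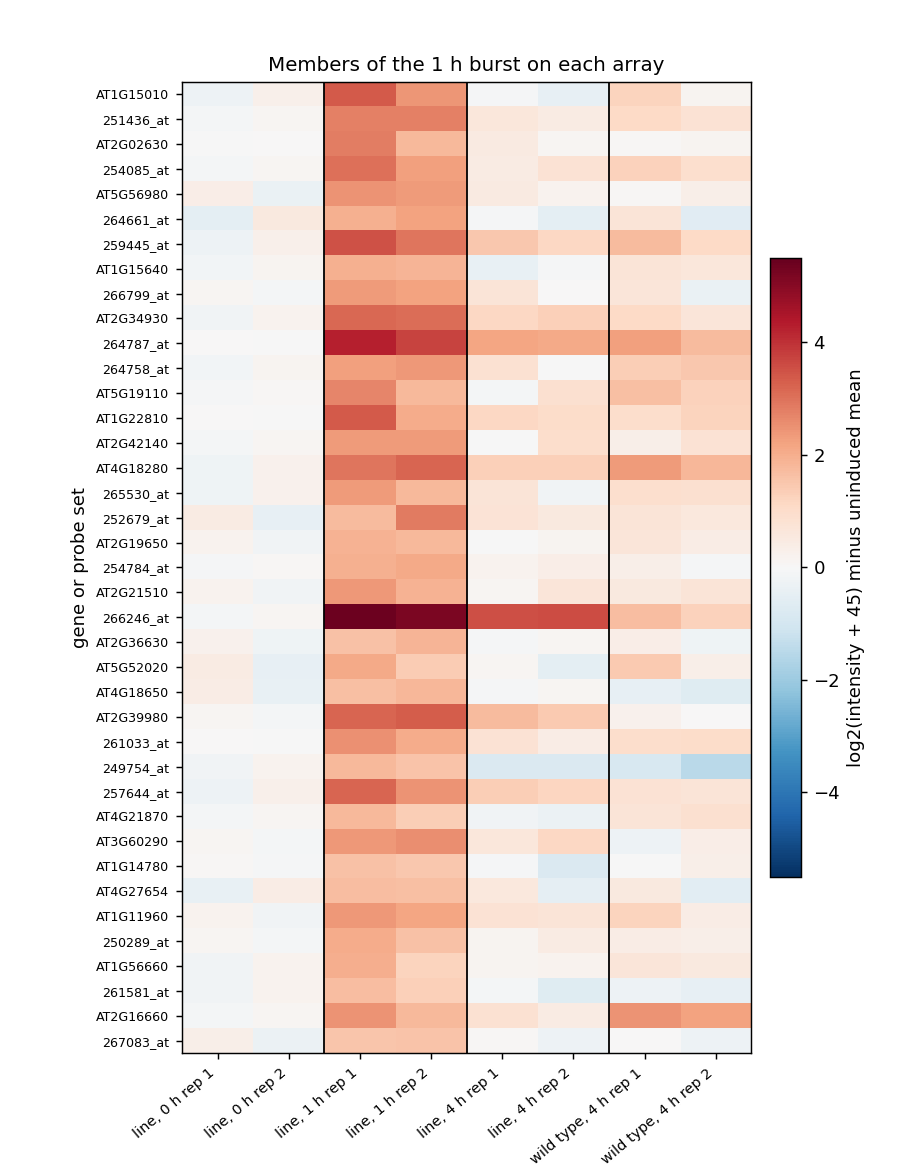
Heat map of the 39 members (rows, ordered by the smaller of both differences that chose them) on the 8 arrays (columns: line 0 h, 1 h and 4 h, then wild type 4 h, 2 replicates each). Colour is log2(intensity + 45) minus the mean of both uninduced arrays; the 1 h columns are the darkest red in nearly all rows, and AT2G16660 is as red in wild type as at 1 h.

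AT1G15010 had the largest smaller-of-both difference of all members. It stood at 236 and 361 in the uninduced line, 3486 and 1767 at 1 h, 280 and 199 at 4 h, and 750.0 and 328 in wild type. The 1 h arrays lie far above the other 6, and the 4 h arrays overlap the uninduced ones. The differences that chose it were 2.96 and 3.23. No role is given here for its protein.

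AT2G34930, a leucine-rich repeat protein of the disease resistance type, had 247 and 334 in the uninduced line, 2958 and 2756 at 1 h, 697 and 770.2 at 4 h, and 660.4 and 484 in wild type. Its 4 h and wild type arrays lie between the other groups without overlap with either. AT5G56980, named for its induction by pathogen-associated molecular patterns, had 213 and 113 uninduced, 1082 and 975 at 1 h, 241 and 189 at 4 h, and 165 and 206 in wild type. Here all 6 arrays other than those at 1 h overlap.

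Roles of members are given as background and not read from the files. AT1G22810, of the AP2/ERF family, had 34.3 and 30.5 in the uninduced line, 762 and 270.4 at 1 h, 122.9 and 109 at 4 h, and 106 and 138 in wild type. Its 1 h replicates differ by more than most members' do, and both lie above all other arrays. AT5G52020, also of the AP2/ERF family, had 59.4 and 10.3 uninduced, 277 and 154 at 1 h, 38.0 and 6.8 at 4 h, and 162 and 49.8 in wild type. Wild type replicate 1 lies above 1 h replicate 2, so these groups overlap. AT2G42140, a VQ motif protein, of a family that binds WRKY factors, had 216 and 214 at 1 h against 3.2 and 10.2 uninduced, with 5.3 and 55.7 at 4 h and 19.4 and 44.9 in wild type.

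AT1G11960 belongs to the family of OSCA channels, which open on osmotic stress and pass calcium. It had 177 and 122.9 uninduced, 969 and 831 at 1 h, 291 and 272 at 4 h, and 402 and 213 in wild type. AT2G36630, a membrane protein of the TauE/SafE family, had 241 and 167 uninduced, 712 and 852 at 1 h, 192 and 224 at 4 h, and 269 and 166 in wild type. Both were highest at 1 h, and AT2G36630 overlapped between all other groups. AT1G14780, with a MAC/perforin domain, a domain of membrane attack proteins, had 198 and 181 uninduced, 667 and 606 at 1 h, 176 and 91.4 at 4 h, and 189 and 248 in wild type.

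AT4G21870, a small heat shock protein, was the brightest named member, with 3122 and 3617 uninduced, 11656 and 8560 at 1 h, 2937 and 2710 at 4 h, and 5451 and 6281 in wild type. The 4 h arrays lie below the uninduced arrays and the wild type arrays above them. AT2G21510, a DnaJ protein, a co-chaperone of Hsp70, had 21.7 and 7.0 uninduced, 259 and 174 at 1 h, 18.4 and 49.3 at 4 h, and 40.9 and 50.5 in wild type. Its level away from 1 h was near the bottom of the scale.

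AT2G39980, an acyltransferase of the HXXXD type, had 640.3 and 549 uninduced, 5859 and 6357 at 1 h, 2084 and 1683 at 4 h, and 714 and 611 in wild type. AT4G18280, related to glycine-rich cell wall proteins, had 243 and 343 uninduced, 2535 and 3059 at 1 h, 792 and 780.2 at 4 h, and 1652 and 1130 in wild type. In both genes the 4 h arrays stayed above the uninduced arrays, and they lie on opposite sides of wild type. AT3G60290, a 2-oxoglutarate-dependent oxygenase, had 106 and 87.4 uninduced, 697 and 792 at 1 h, 172 and 269 at 4 h, and 70.3 and 136 in wild type. AT5G19110, of the aspartic protease family, had 15.6 and 20.3 uninduced, 355 and 172 at 1 h, 14.1 and 71.4 at 4 h, and 153 and 107 in wild type.

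AT2G16660, a transporter of the major facilitator type, had 149 and 184 uninduced, 1118 and 684 at 1 h, 328 and 247 at 4 h, and 1123 and 929 in wild type. It was the 1 member whose wild type mean lay above its 1 h mean. AT4G18650, related to the dormancy protein DOG1, had 220.0 and 103.6 uninduced, 583 and 654 at 1 h, 142 and 168 at 4 h, and 98.6 and 80.7 in wild type, where both arrays lay below all others of this gene.

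The other 5 named members had no role given here or encode C1 domain proteins, and AT4G27654 is named outside the rule for named genes so that each member with a gene is accounted for. The C1 domain proteins, AT2G02630 and AT2G19650, are rich in cysteine and histidine. AT2G02630 had 333 and 138 at 1 h and no more than 29.6 on any other array. AT2G19650 averaged 64.6 uninduced, 343 at 1 h, 70.0 at 4 h, with 114 in wild type. AT1G15640 averaged 95.2, 483, 74.1 and 174 in the same order, AT1G56660 averaged 37.2, 215, 45.8 and 79.95, and AT4G27654 averaged 44.2, 230.0, 49.8 and 46.1. In each of these genes the 1 h mean was the highest of the 4.

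**Figure D2:**
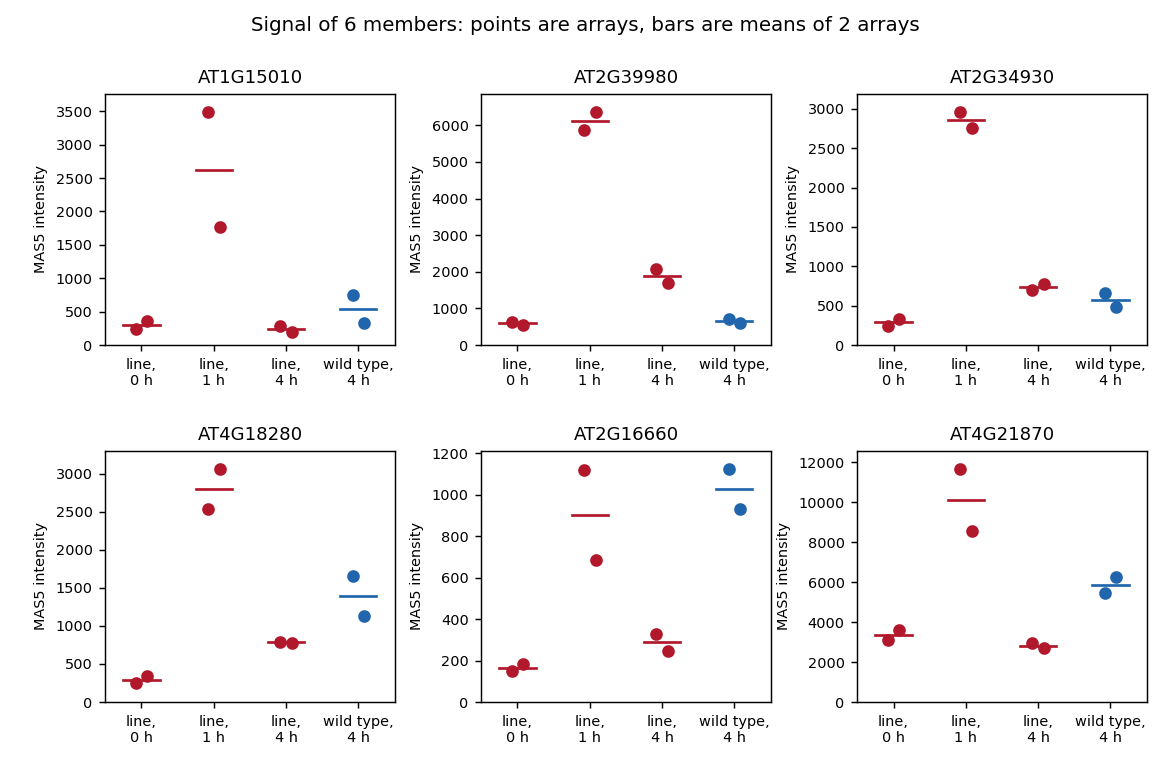
Intensity (linear axis from 0) of 6 members on each array; points are arrays, bars are means of 2 arrays, red is the line at 0, 1 and 4 h and blue is wild type at 4 h. All peak at 1 h among the line's samples; in AT2G39980 wild type lies at the uninduced level, and in AT2G16660 at that of 1 h.

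The 17 probe sets without a listed gene held both the largest rise and the brightest level, and those named here were chosen after their values were seen. 266246_at had 82.9 and 105 uninduced, 5840 and 4918 at 1 h, 1571 and 1636 at 4 h, and 401 and 284 in wild type, a 39.1-fold difference at 1 h after the addition of 45 to both means. 264787_at had 470.4 and 456 uninduced, 9684 and 6594 at 1 h, 2233 and 2113 at 4 h, and 2387 and 1661 in wild type. Both stayed well above the uninduced arrays in all treated groups. 267083_at, the brightest, had 5803 and 3596 uninduced, 13278 and 13485 at 1 h, 4758 and 3782 at 4 h, and 4649 and 3806 in wild type, where only the 1 h arrays stand apart. The mean at 1 h over the 17 ran from 242 to 13382, and the median difference from the uninduced line was 2.29.

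Members at the edge of the rule differ little from probe sets outside it. Of those with a gene, AT1G11960, AT1G56660 and AT2G16660 were just inside, with smaller differences of 1.53, 1.52 and 1.51. Of those without, 250289_at, 261581_at and 267083_at had 1.527, 1.516 and 1.501, the last being the nearest of all members. Just outside, among probe sets with a gene, were AT1G65490, AT1G78070 and AT5G57760 with 1.46, 1.43 and 1.41. AT1G65490 is also among the genes that the rule leaves out by name, so no value would have made it a member.

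The replicates at 1 h were not alike for the members. Replicate 1 was the higher in 29 of 39, or 74.4%, against 51.8% of all tested probe sets, and its median excess on the log2 scale was 0.21 for the members and 0.02 for all tested. AT1G15010, AT1G22810, AT2G02630 and AT5G19110 had far more signal in replicate 1, while AT2G36630 and AT4G18280 were higher in replicate 2. Without 1 h replicate 1 the rule gave 26 members, 24 of them among the 39, and without 1 h replicate 2 it gave 51, 36 of them among the 39.

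A peak at 1 h did not mean a full return by 4 h. Both 4 h arrays lay above both uninduced arrays for 18 of 39 members, where 33.2% of tested probe sets did so, and below both for 3, where 33.6% did. The mean at 4 h was within 0.5 of the uninduced level on the log2 scale for 22 members, 0.5 to 1 above it for 8, at least 1 above it for 8, and 0.5 or more below it for 1. Among named members AT2G39980 stayed highest, 1.59 above the uninduced level, followed by AT4G18280 with 1.30, AT2G34930 with 1.22, AT1G22810 with 1.05, AT3G60290 with 0.91 and AT1G11960 with 0.74. The lowest were AT1G14780 with -0.39, AT1G15010 with -0.27, AT4G21870 with -0.25, AT5G52020 with -0.24, AT1G15640 with -0.23 and AT4G18650 with -0.05. These values rest on groups that the rule used, so they were not tested.

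**Figure D3:**
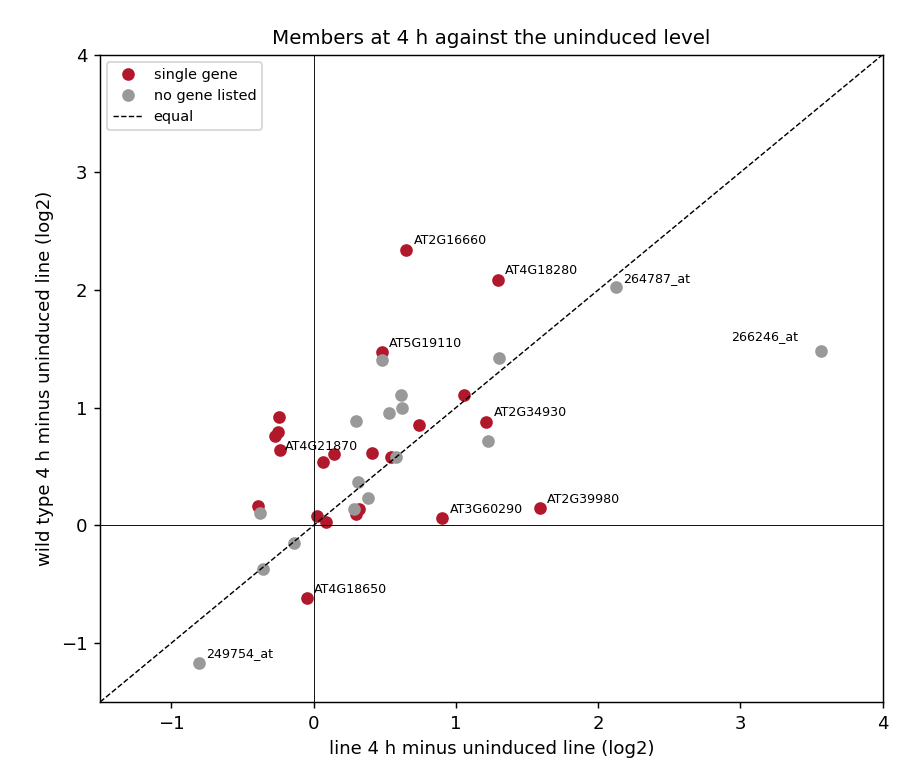
Each point is 1 of the 39 members; the x axis is the 4 h level of the line and the y axis the 4 h level of wild type, both minus the uninduced level as log2(mean + 45). Red points have a single gene and grey points none; on the dashed line both 4 h groups are equal. AT2G16660 and AT4G18280 lie above it, and AT2G39980 and 266246_at below it.

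Wild type was not used for either difference of the rule. Set against the uninduced line it differs both in genotype and in treatment, and with no untreated wild type array these cannot be told apart. The rule asked for a low uninduced level, which by itself shifts this difference upward. Of the 39 members 15 were higher in wild type, 7 of them named, and 1 was lower (limma, Benjamini-Hochberg adjusted p under 0.05 over 15026 probe sets), where 16.8% of all tested were called higher and 14.3% lower. The median difference was 0.65 for the members and 0.03 for all tested. On the scale of the rule the median was 0.61 for the members and 1.06 for the 265 other probe sets that met the 1 h threshold without the one at 4 h. All 39 members had passed the filter on low values, 7 of them on the 1 h arrays alone, so the share called is a description. Both wild type arrays lay above both uninduced arrays for 24 members, where 35.0% of tested probe sets did, and below both for 3, where 31.4% did.

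The transporter AT2G16660 had the largest difference among the members, with 1123 and 929 in wild type against 149 and 184 in the uninduced line, higher by 2.34 on the log2 scale (SE 0.22, limma adjusted p = 1.4e-06). AT4G18280 was higher by 2.08 (SE 0.19, adjusted p = 1.1e-06), AT5G19110 by 1.46 (SE 0.41, adjusted p = 0.0131), AT1G22810 by 1.10 (SE 0.36, adjusted p = 0.0294), AT2G34930 by 0.88 (SE 0.18, adjusted p = 0.0017), AT1G11960 by 0.81 (SE 0.25, adjusted p = 0.0195) and AT4G21870 by 0.79 (SE 0.15, adjusted p = 9.3e-04). Of these 7, AT2G16660, AT4G18280, AT2G34930 and AT4G21870 kept their call under all 14 alternatives. AT1G22810 lost it without any of the 4 arrays compared (adjusted p = 0.0787 to 0.168), without a trend of the variance with level (0.0561), with no filter (0.0837) and with a pseudocount of 100 (0.0656). AT5G19110 lost it without uninduced replicate 1 (adjusted p = 0.0575) or wild type replicate 1 (0.125), and AT1G11960 without uninduced replicate 2 (0.146) or wild type replicate 1 (0.303), without a trend (0.053) and with no filter (0.0583).

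Members without a listed gene followed both ways. 264787_at was higher in wild type by 2.00 (SE 0.19, limma adjusted p = 1.1e-06) and 266246_at by 1.47 (SE 0.18, adjusted p = 1.6e-05). 249754_at, with 156 and 86.8 in wild type against 283 and 373 in the uninduced line, had a log2 difference of -1.19 (SE 0.23, adjusted p = 9.1e-04). It had 1227 and 1051 at 1 h and 166 and 171 at 4 h, so that both 4 h groups lay below the uninduced arrays. 257644_at and 265530_at, called higher by 0.75 and 0.90, lost their call without uninduced replicate 1 (adjusted p = 0.266 and 0.188) or either wild type array (0.101 to 0.148), without a trend (0.0752 and 0.0637) and with no filter (0.082 and 0.0887), and 264758_at without wild type replicate 2 (0.0608).

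Named members such as AT2G36630, AT5G56980, AT2G02630, AT3G60290 and AT4G27654 had wild type means close to the uninduced ones, 218 against 204 intensity units, 185 against 163, 11.9 against 8.3, 103 against 96.9 and 46.1 against 44.2. AT2G02630 and AT4G27654 passed the filter on low values on the 1 h arrays alone, so for them low signal by itself can make these means close. AT2G39980 had 662 in wild type against 594 in the uninduced line and was not called (0.15, SE 0.16, limma adjusted p = 0.523). Wild type at an earlier time was not measured.

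The line at 4 h set against wild type at 4 h compares the members under the same treatment time, with and without the fusion. The rule asked for a low level in the line at 4 h, which shifts this difference downward. The comparison also lies across the inferred fluidics runs, so run and group cannot be told apart. The 4 seed and embryo markers of 8 listed that have a probe set of their own summed to 6190 and 7117 in the line at 4 h, against 68.2 and 108 in wild type. The 4 root markers summed to 12425 and 11060 in the line at 4 h, against 19192 and 18191 in wild type. The part of either marker set in the values below was not tested. Of 39 members 2 were higher in the line and 4 were lower, where 3.42% of all tested probe sets were called higher and 3.21% lower. The median difference was -0.07 for the members and -0.02 for all tested. Both line arrays lay below both wild type arrays for 15 members, where 26.3% of tested probe sets did, and above both for 7, where 21.6% did. The 21 members called neither here nor between wild type and the uninduced line include AT1G15010, AT5G56980, AT2G36630 and AT4G18650.

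AT2G39980 had 2084 and 1683 in the line at 4 h, against 714 and 611 in wild type, and was higher by 1.44 (SE 0.16, limma adjusted p = 1.9e-05). 266246_at, with 1571 and 1636 in the line against 401 and 284 in wild type, was higher by 2.11 (SE 0.18, adjusted p = 1.8e-06). Both kept their call under all 14 alternatives. AT3G60290 was higher on both line arrays, 172 and 269 against 70.3 and 136, and did not pass the test (0.86, SE 0.27, adjusted p = 0.0715).

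The members that were lower in the line at 4 h were AT2G16660, AT4G21870, AT1G15640 and AT4G18280. AT2G16660 had 328 and 247 in the line against 1123 and 929 in wild type and was lower by 1.69 on the log2 scale (SE 0.22, limma adjusted p = 1.6e-04). AT4G21870, the small heat shock protein, had 2937 and 2710 against 5451 and 6281 and was lower by 1.04 (SE 0.15, limma adjusted p = 4.0e-04). Both kept their call under all 14 alternatives. AT1G15640, with 59.6 and 88.6 against 180 and 168, was lower by 0.89 (SE 0.25, limma adjusted p = 0.0473). Its call was lost without any array of the line at 1 h or 4 h or of wild type. It was also lost with the replicate block (limma adjusted p = 0.0561), with a pseudocount of 100 (0.0551), with quantile normalization (0.0598) and with no filter (0.128). AT4G18280 was lower by 0.76 (SE 0.19, limma adjusted p = 0.0246). That call was lost without wild type replicate 1 or either 4 h array of the line. It was also lost without a trend (limma adjusted p = 0.117) and with no filter (0.0679). Of the 4 lower members 3 were also called higher in wild type than in the uninduced line, a pair of comparisons that shares the wild type arrays.

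**Figure D4:**
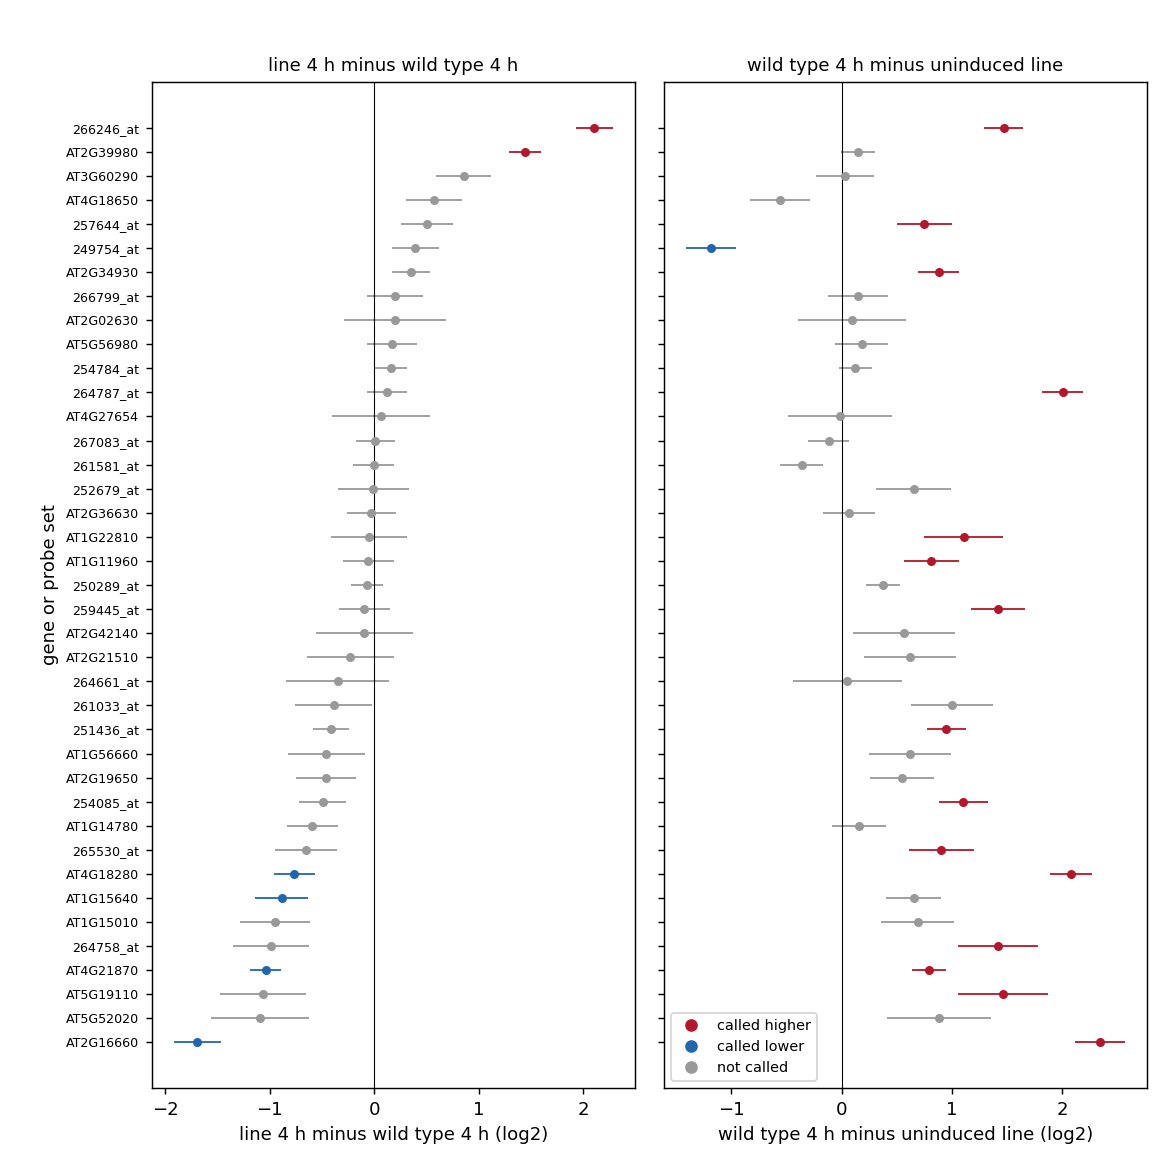
Fitted log2 differences of the 39 members with their standard errors, line 4 h minus wild type 4 h on the left and wild type 4 h minus the uninduced line on the right, from limma on log2(intensity + 45). Red is called higher, blue called lower and grey not called at adjusted p under 0.05; 2 members are red and 4 blue on the left, 15 red and 1 blue on the right.

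Set against the 1 h level, wild type at 4 h was mostly lower. Both 1 h arrays lay above both wild type arrays for 37 of 39 members, where 27.9% of tested probe sets did. The exceptions were AT2G16660 and AT5G52020. Times differ between these groups and the 1 h level chose the members, so no test was made.

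Gene families known from rapid responses were looked up by symbol, and no member carries a symbol that these lists matched. Genes without a symbol could not enter the lists, so the counts may cover only part of each family. Several lists, such as those for MYB factors, receptor-like kinases and jasmonate or ethylene synthesis, matched no gene. For the 1 h arrays against the uninduced ones, the share called over all tested probe sets was 9.50% higher and 7.16% lower. For 1 h against 4 h it was 9.34% higher and 10.3% lower. As 1 h against uninduced lies across the inferred fluidics runs, run and group cannot be told apart in its calls. Of 7 WRKY factors 6 were tested, of which 3 were called higher at 1 h against uninduced and 0 lower (limma; 4 of the 6 had an unadjusted p under 0.05). WRKY22, a factor of defence signalling, was also the 1 called higher against 4 h. It averaged 418 uninduced, 1117 at 1 h, 421 at 4 h, with 389 in wild type. Its fitted differences were 1.30 and 1.29 (SE 0.20 each, limma adjusted p = 2.8e-04 and 3.7e-04), short of the threshold of the rule. WRKY6 and WRKY53 were higher by 1.26 and 1.13 at 1 h. They averaged 290 and 206 at 1 h and 239 and 187 at 4 h. Without 1 h replicate 1 the count of higher WRKY genes was 1.

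Of 5 genes of rapid wound and touch responses 4 were called higher at 1 h against uninduced, and 2 without 1 h replicate 1. By limma 0 of the 5 were higher against 4 h, where 1 had an unadjusted p under 0.05, and 1 was called without uninduced replicate 1. These 5, STZ, PUB23, PUB24, WRKY6 and WRKY53, were the only genes of a longer list that were matched by symbol. Each is also counted in the C2H2, U-box or WRKY list, so its calls appear in both. STZ, a C2H2 zinc finger repressor of stress responses, averaged 115 uninduced, 1268 at 1 h, 854 at 4 h, with 725 in wild type. It rose by 3.05 at 1 h (SE 0.20, limma adjusted p = 7.7e-08). Among 12 tested U-box and RING-H2 ubiquitin ligases, PUB22, PUB23 and PUB43 were the 3 called higher at 1 h. Against 4 h the 2 called higher were PUB22 and PUB19, the PUB19 call being named after its values were seen, and 1 was lower. That count of 2 was 0 without 1 h replicate 1 or 4 h replicate 2, and 1 without 1 h replicate 2. The count of 1 lower was 0 without any of the 1 h and 4 h arrays, without a trend, with no filter and with a pseudocount of 1. PUB22, a ligase of the immune response, averaged 162 uninduced, 829 at 1 h, 416 at 4 h, with 332 in wild type. PUB23 averaged 106, 587, 697 and 306 in the same order, with its highest mean at 4 h.

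CML42 and CML38 were the 2 higher at 1 h of 5 tested calmodulin-like genes. CML38 had met both thresholds of the rule and was left out by name only, so its calls are a description. CML38 was the 1 called higher against 4 h, and the count was 2 without 1 h replicate 2. Both tested AP2/ERF genes matched by symbol, tny and TINY2, were higher at 1 h, and tny averaged 243 uninduced, 1359 at 1 h, 615 at 4 h, with 388 in wild type. Among 21 tested cell wall loosening genes (XTH and expansins) 7 were higher and 2 lower at 1 h. That count of 7 was 3 without 1 h replicate 2 and 4 without uninduced replicate 2 or without a trend. Against 4 h 3 were higher, and 5 were lower, or 2 without 4 h replicate 2. XTH18 is among the 7 and among the 3, and it too had met both thresholds and was left out by name only. EXLA1, an expansin-like gene, averaged 992 uninduced, 2847 at 1 h, 1081 at 4 h, with 782 in wild type. EXLA2, named after its values were seen, was higher against 4 h but not called at 1 h against uninduced. It averaged 329 uninduced, 346 at 1 h and 165 at 4 h. The 2 lower at 1 h were EXPA8, with 1641 uninduced and 141 at 1 h, and EXGT-A3, with 3477 and 1018. Of 7 tested auxin response genes 1 was higher and 4 were lower at 1 h, and 1 was higher and 1 lower against 4 h, where the higher count was 0 without 1 h replicate 1 or 4 h replicate 2, without a trend or with no filter. GH3.3, which conjugates auxin, was the gene higher at 1 h against uninduced, by 1.00 (SE 0.19, limma adjusted p = 0.0011). The 4 lower were IAA29, WES1, IAA18 and GH3.17, with differences of -1.75, -1.42, -1.32 and -0.91. IAA29 was also the gene higher against 4 h. It averaged 646 uninduced, 161 at 1 h and 74.1 at 4 h, so it fell throughout and had no peak at 1 h. Among lists with a single tested gene, the protein phosphatase 2C gene was higher at 1 h against both uninduced and 4 h, and those of the NAC, MAP kinase and pathogen signalling lists were not called.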

How the data were processed

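The series holds 8 Affymetrix ATH1 arrays, hybridized with biotin-labelled target from polyA RNA. The authors deposited linear intensity values, 1 for each probe set of each array; the submitters' processing notes name MAS5, and its version and the detection calls are not given in the sources used here. Probe sets were named from the platform annotation, and 13513 of 22746 list a single gene. The RefSeq gene table of TAIR10.1 was used for names.

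The members and lists were chosen with earlier results of these data known. The rule uses log2 of group means + 45; fitted differences use log2(intensity + 45) per array. Of 22746 probe sets, 15026 lay above their array's 40th percentile on at least 2 arrays. They were fitted with 1 mean per group over all 8 arrays (limma 3.58.1, R 4.3.3, lmFit, eBayes with trend). The fit was also run on simulated data with independent normal noise, which cannot speak for technical replicates or a run effect. A call is a Benjamini-Hochberg adjusted p under 0.05. The number of arrays limits the precision. Named genes are those with a single gene that led the rule's differences, were called, lay at its edge, or stayed highest or lowest at 4 h, plus relatives from lists by symbol. Alternatives were the pseudocount, filter, quantile normalization, trend, replicate block and leaving out each array. Replicates share numbers, yet their deviations correlated between groups at only -0.06 to 0.03. Promoter motifs listed in the design were not analysed here.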

Additional observations from a re-analysis of the deposited data

How the results depend on the processing

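The rule gave 39 members, 21 with a pseudocount of 100, 122 with a threshold of 1 and 5 with a threshold of 2. Leaving out each array gave 26 to 51. Of the 39 members 17 met the rule whichever array was left out, and 22 failed it without at least 1 array. With a pseudocount of 1, a minimum mean of 100 and quantile normalization it gave 55, 40 and 38, of which 39, 39 and 37 were among the 39. The count higher in wild type than in the uninduced line was 15, with 10 to 16 over left-out arrays, and the count lower was 1, with 1 to 2. For the line at 4 h against wild type, 2 were higher under every alternative, and 4 were lower, 2 with no filter and 2 to 4 over left-out arrays. With the replicate block these counts were 15, 1, 2 and 3; it ended the call of AT1G15640 only, and deviations of same-numbered arrays correlated between groups at -0.06 to 0.03. Of 22 member calls 14 held under all 14 alternatives run and 8 were lost under some; no call changed direction. No member lies on an _s_at or _x_at probe set. For 13 of 24 list counts every alternative stayed within 1.5 times. They include counts of 0 that stayed 0, such as that of WRKY factors called lower, which hold no call. Of the 39 members 13 lay at or below the 40th percentile on both uninduced arrays, and for these the fold at 1 h depends on the pseudocount; signal over background could not be read without detection calls.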
